A study of Mus musculus with 6 samples.

Results

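Colipase and the pancreatic-type lipases were examined in small intestinal crypts of CSN8ΔIEC and CSN8fl/fl mice. The set was listed by gene symbol as Clps, Pnliprp2, Pnliprp1, Pnlip and Cel. Of these 5 genes, 4 had a probe set with that symbol and were among the 19505 genes compared, and Pnlip was not analysed here. The set was selected on the log2 signals of CSN8ΔIEC against CSN8fl/fl crypts, with the low Clps and Pnliprp2 signals already known, so these differences are given as a description, without a p-value. Gene expression was read as log2 signals on Affymetrix arrays from total RNA of 3 CSN8ΔIEC and 3 CSN8fl/fl samples, with 1 array per sample. CSN8fl/fl mice carry a floxed Cops8 gene, which encodes a subunit of the COP9 signalosome, and the genotype name of CSN8ΔIEC mice says that the subunit is deleted in intestinal epithelial cells; the labels used here name no Cre line. Both genotypes were on a C57BL/6 background. In each, replicates 1 and 2 were labelled female and 16 weeks old, and replicate 3 male and 10 weeks old. The labels do not say that each sample came from its own mouse, so the errors measure the spread between samples, part of which may be technical.

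Dietary triglyceride is split in the gut lumen by pancreatic triglyceride lipase, the product of Pnlip. Bile salts strip this lipase from the fat droplet, and colipase, a small protein encoded by Clps, binds the lipase and anchors it there. Pnliprp2 encodes a relative that also acts on galactolipids and phospholipids, Pnliprp1 a relative with little known lipase activity, and Cel the bile salt-dependent carboxyl ester lipase, which also splits cholesteryl and retinyl esters. All are classical products of pancreatic acinar cells, the enzyme-secreting cells of the pancreas. In mice, transcripts of Clps and Pnliprp2 are also known from Paneth cells, the granule-bearing antimicrobial cells of the crypt base, so RNA of either source could appear in a crypt preparation.

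The Cops8 signal was 7.68, 7.61 and 7.77 in CSN8ΔIEC replicates 1 to 3, against 8.26, 8.22 and 8.10 in CSN8fl/fl, a difference of −0.50 ± 0.11 (SE) that missed the threshold of 0.05 (limma, adjusted p = 0.0865 over all genes). No source used here says whether its probes lie in the deleted part. The sex labels were contradicted in both genotypes: the Y-linked Eif2s3y was at 2.81 in CSN8ΔIEC replicate 3 and 4.06 in CSN8fl/fl replicate 3, both labelled male, and between 9.61 and 10.10 in the 4 arrays labelled female. Replicates are therefore named by number below. CSN8fl/fl replicate 3 stood apart, with correlations over all probe sets of 0.976 to 0.986 with the other arrays, against 0.986 to 0.993 among those, and values without it are given where they bear on a result.

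RefSeq (GRCm38.p6) lists Pnlip, Pnliprp1 and Pnliprp2 as neighbouring coding genes in this order, and Clps next to Clpsl2, a colipase-like gene. The 250 bases before the annotated start are shown for the neighbours Pnliprp2 and Pnliprp1, whose signals put the 6 arrays in the same order, and for Cel, whose signal was low in all arrays. Capitals mark matches, on either strand, to CACCTG (an E-box read by PTF1, the acinar factor complex, and by other basic helix-loop-helix factors), TTTCCC (read by RBPJ proteins), CTTTGA (the core read by the TCF and LEF factors of Wnt signalling) and TATAAA (the TATA box). The Pnliprp2 stretch is chr19:58759473-58759722 (plus strand), that of Pnliprp1 chr19:58728637-58728886 (plus strand) and that of Cel chr2:28563404-28563653 (minus strand).
Pnliprp2: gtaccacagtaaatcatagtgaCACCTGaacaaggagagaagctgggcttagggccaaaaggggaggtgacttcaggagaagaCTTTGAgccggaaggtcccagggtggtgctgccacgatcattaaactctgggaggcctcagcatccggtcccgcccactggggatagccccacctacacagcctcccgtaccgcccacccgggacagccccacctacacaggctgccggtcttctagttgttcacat
Pnliprp1: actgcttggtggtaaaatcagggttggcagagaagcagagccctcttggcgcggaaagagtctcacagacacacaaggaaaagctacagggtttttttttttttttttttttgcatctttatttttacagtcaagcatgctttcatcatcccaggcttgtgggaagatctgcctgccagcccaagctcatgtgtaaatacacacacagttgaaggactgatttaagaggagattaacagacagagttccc
Cel: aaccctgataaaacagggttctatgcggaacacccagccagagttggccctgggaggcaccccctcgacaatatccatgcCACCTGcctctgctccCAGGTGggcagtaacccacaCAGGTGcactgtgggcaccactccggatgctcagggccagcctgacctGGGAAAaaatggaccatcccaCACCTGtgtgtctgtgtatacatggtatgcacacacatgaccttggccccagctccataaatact
The Pnliprp2 stretch held 1 CACCTG, beginning at position −228 from the start, and 1 CTTTGA at −167. That of Pnliprp1 held none of the 4 motifs. The Cel stretch held CACCTG in 4 places, at −170 and −65 on the gene's strand and at −154 and −134 on the opposite strand, and TTTCCC at −86 on the opposite strand. No 2 of these matches overlapped. The stretch of Pnlip, which is not shown, held TATAAA at −30 and none of the other motifs. Clps had no entry among the stretches used. Over 27018 genes with such a stretch, CACCTG was found in 17.1%, TTTCCC in 21.9%, CTTTGA in 14% and TATAAA in 13.0%. The matches describe the letters only and were not tested for binding.

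Clps and Pnliprp2 had strong signals in CSN8fl/fl crypts and much lower ones in every CSN8ΔIEC array. Clps, colipase (NCBI gene ID 109791), had log2 signals of 9.62, 8.86 and 10.35 in CSN8ΔIEC replicates 1 to 3, against 12.29, 12.61 and 13.26 in CSN8fl/fl. The groups did not overlap, and the highest CSN8ΔIEC value lay 1.94 below the lowest CSN8fl/fl value, which is more than the spread within either group. The mean was 9.61 ± 0.74 in CSN8ΔIEC and 12.72 ± 0.49 in CSN8fl/fl (SD, n = 3 each), a log2 difference of −3.11 ± 0.36 (SE), or an 8.62-fold lower signal. Pnliprp2, the galactolipid-splitting relative (18947), had 8.42, 8.97 and 9.55 in CSN8ΔIEC, against 11.37, 12.19 and 13.16 in CSN8fl/fl. These groups did not overlap either, with 1.82 between the nearest arrays. The mean was 8.98 ± 0.56 in CSN8ΔIEC and 12.24 ± 0.90 in CSN8fl/fl (SD, n = 3 each), a difference of −3.26 ± 0.42, or 9.59-fold lower. Among the differences of all 19505 genes, that of Pnliprp2 was the 5th and that of Clps the 8th lowest. In a bulk sample, fewer cells of a type and less RNA per cell cannot be told apart.

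**Figure D1:**
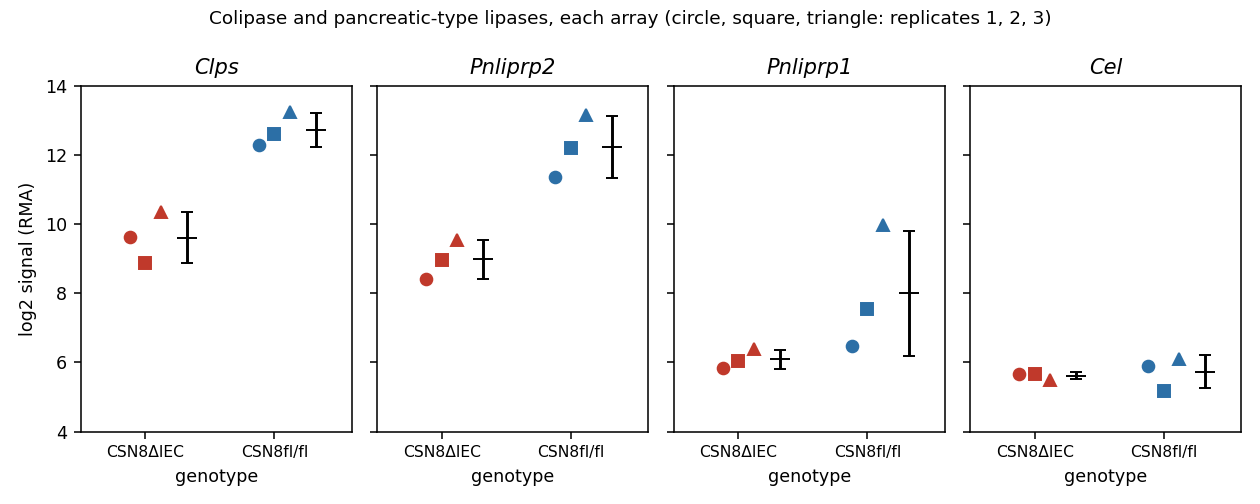
Log2 signals of Clps, Pnliprp2, Pnliprp1 and Cel in each array (vertical axis) for CSN8ΔIEC (left, red) and CSN8fl/fl (right, blue). Circles, squares and triangles are replicates 1, 2 and 3, and bars show the mean ± SD (n = 3). Clps lies between 8.86 and 10.35 in CSN8ΔIEC and between 12.29 and 13.26 in CSN8fl/fl, and the Cel groups overlap.

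Pnliprp1 (18946), the relative with little known lipase activity, was low in all CSN8ΔIEC arrays. Its signal was 5.83, 6.03 and 6.39 in CSN8ΔIEC replicates 1 to 3, against 6.47, 7.53 and 9.99 in CSN8fl/fl. The CSN8fl/fl arrays thus spanned most of the range, with replicate 3 far above the other two, and the groups were separated by only 0.078. The means were 6.09 ± 0.28 in CSN8ΔIEC and 7.996 ± 1.80 in CSN8fl/fl (SD, n = 3 each), and the difference of −1.91 ± 0.72 was −0.91 without CSN8fl/fl replicate 3. Cel (12613), the bile salt-dependent ester lipase, had 5.67, 5.67 and 5.50 in CSN8ΔIEC, against 5.89, 5.18 and 6.10 in CSN8fl/fl. These groups overlapped, and the difference of −0.11 ± 0.22 had a 95% interval from −0.60 to 0.38.

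In the fit across all genes, Clps and Pnliprp2 passed the threshold (adjusted p under 0.05) and Pnliprp1 and Cel did not, that is 2 of the 4 measured genes with lower signals and 0 with higher ones. Over all genes, 1.08% passed, of which those that fell were 0.702% and those that rose 0.374% of all. In 3 of the 4, all but Cel, each CSN8ΔIEC array lay below each CSN8fl/fl array, as in 11.7% of all genes. Nothing is read from these shares, since the genes were chosen with this comparison known. Without CSN8ΔIEC replicate 1 the count was 1, Pnliprp2 being the one lost. Without CSN8fl/fl replicate 3, the differences of Clps and Pnliprp2 were −2.84 and −2.80.

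The difference between replicate 3 and replicates 1 and 2, which the labels give as sex and age together, had no part in the choice of the genes. With genotype in the model, Pnliprp1 was higher in replicate 3 by 1.72 ± 0.52, Pnliprp2 by 1.12 ± 0.26, Clps by 0.96 ± 0.22 and Cel by 0.20 ± 0.23. None passed over all genes (limma, adjusted p = 0.778 for the first 3 and 0.877 for Cel), although the first 3 had an unadjusted p under 0.05, as did 1202 of the 19505 genes. The value of Pnliprp1 was 0.46 without CSN8fl/fl replicate 3 and 2.99 without CSN8ΔIEC replicate 3, while those of Pnliprp2 and Clps lay between 0.852 and 1.38 and between 0.773 and 1.11 when 1 array was left out. The 3 genes that passed, 0.0154% of all, were the Y-linked Eif2s3y, Uty and Kdm5d, all lower in replicate 3. In Clps and Pnliprp2, replicate 3 had the highest signal within both genotypes. The same held for Pnliprp1, whose genotype difference was −0.64, −1.50 and −3.60 by replicate number.

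The genotype difference was then compared between replicate 3 and replicates 1 and 2 with an interaction term. The difference of differences was −2.53 ± 0.57 for Pnliprp1 (adjusted p = 0.421), −0.73 ± 0.41 for Cel (adjusted p = 0.569), −0.53 ± 0.53 for Pnliprp2 (adjusted p = 0.752) and 0.30 ± 0.46 for Clps (adjusted p = 0.85). None of the 4 passed in limma, and 1, Pnliprp1, had an unadjusted p under 0.05. Over all genes 0 of 19505 (0.0%) passed and 1974 had an unadjusted p under 0.05. When 1 array of replicates 1 and 2 was left out, the value of Pnliprp2 was −0.94 with CSN8fl/fl replicate 2 dropped and −0.119 with CSN8fl/fl replicate 1 dropped, that of Cel was −0.376 and −1.08 for the same arrays, that of Pnliprp1 lay between −3.06 and −1.996, and that of Clps was −0.083 without CSN8ΔIEC replicate 2. The spread in this model came from replicates 1 and 2 alone.

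A list was made of products of pancreatic acinar cells, mostly enzymes and called so below, that were taken as not known from gut epithelium. These genes had small genotype differences. Their signals were low, and such signals respond less to a change in RNA. Of 22 such enzymes listed, 18 were measured, and 0 rose and 0 fell (limma, 1 at an unadjusted p under 0.05). Over all genes, 1.08% passed. The median difference of the 18 was −0.022, beside −0.011 over all genes, and 0.075 without CSN8fl/fl replicate 3. The differences lay between −0.45 and 0.28. In 1 of the 18, Try4, a trypsinogen, each CSN8ΔIEC array lay below each CSN8fl/fl array, beside 11.7% of all genes.

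The carboxypeptidase Cpa1 had 6.58, 6.36 and 6.25 in CSN8ΔIEC, against 6.15, 6.56 and 6.72 in CSN8fl/fl. The chymotrypsinogen Ctrb1 had 4.94, 4.86 and 5.10 in CSN8ΔIEC, against 4.70, 5.00 and 4.85 in CSN8fl/fl. The elastase Cela3b had 6.91, 6.74 and 6.76 in CSN8ΔIEC, against 6.54, 6.82 and 6.81 in CSN8fl/fl. In all 3, the groups overlapped. Cpb1, Cela2a and Ctrl differed by −0.042, 0.0094 and −0.0017 (adjusted p = 0.917, 0.985 and 0.996). The pancreatic amylases Amy2a2, Amy2a4 and Amy2a5 are near-identical copies whose signals cannot be separated; they were lowest in CSN8fl/fl replicate 1 and highest in CSN8fl/fl replicate 2 or 3, with Amy2a5 at 4.98, 4.70 and 5.25 in CSN8ΔIEC, against 4.63, 5.11 and 5.57 in CSN8fl/fl.

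The level of these 18 probe sets was low. Of them, 17 had a mean below the median of all genes and 9 below the 25th percentile, and the highest value in any array was 7.13. Pnliprp2 and Clps were at the 93.8 and 96.4 percentiles of gene means, Pnliprp1 at the 52.2 and Cel at the 34.5 percentile. Probes differ in how strongly they bind, so these positions do not rank transcript levels between genes. On the linear scale, the signals of the 18 summed to 747 to 820 in the CSN8ΔIEC arrays and to 704 to 912 in the CSN8fl/fl arrays, so that the groups overlapped. In CSN8fl/fl replicate 3, where Clps, Pnliprp2 and Pnliprp1 were highest, the median of the 18 was 0.12 above their mean over the 6 arrays, against 0.068 and −0.21 in CSN8fl/fl replicates 2 and 1.

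**Figure D2:**
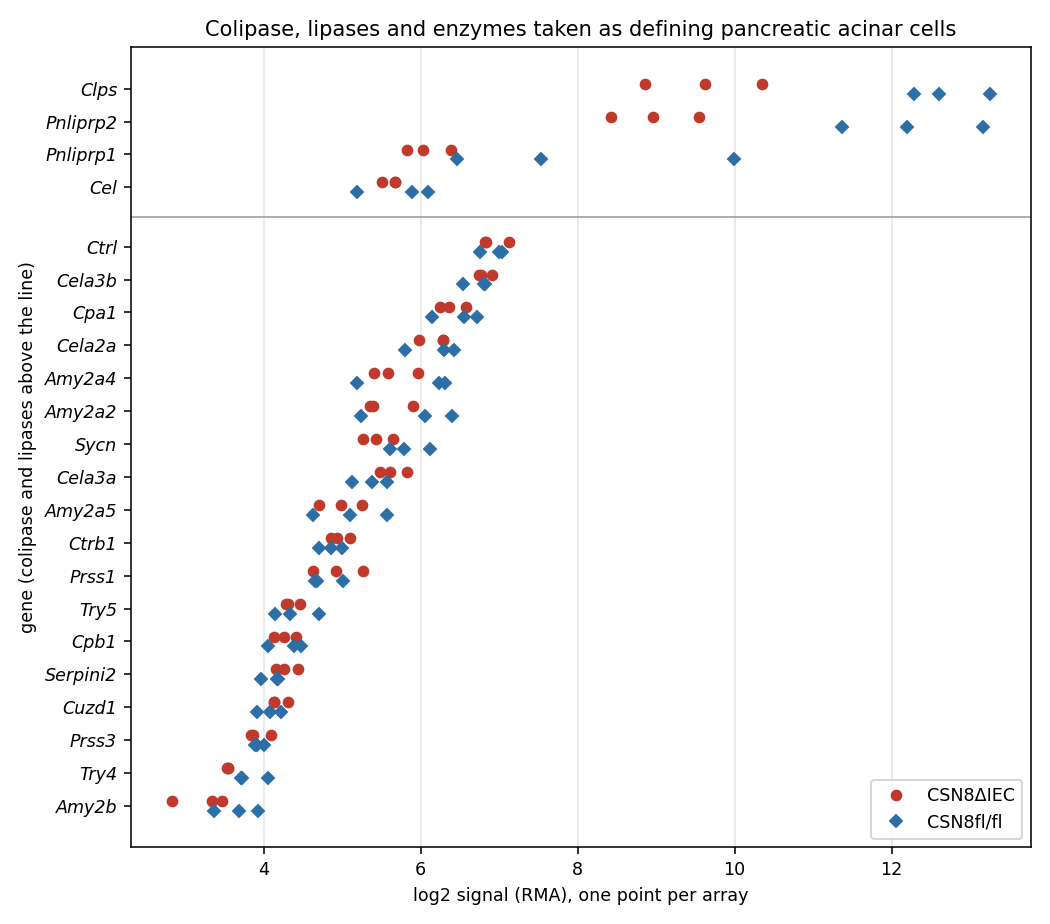
Log2 signals (horizontal axis, 1 point per array) of Clps, Pnliprp2, Pnliprp1 and Cel, above the line, and of 18 enzymes taken as defining pancreatic acinar cells. Red circles are CSN8ΔIEC and blue diamonds CSN8fl/fl. The 18 enzymes stay at or below 7.13 in every array, and Clps and Pnliprp2 lie above 8.4 in all of them.

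A wider list of acinar products also held genes that gut epithelium is known to express. Of its 38 genes, 34 were measured, 2 fell and 0 rose, with a median of −0.082. Over all genes, 0.702% fell and 0.374% rose. Rnase1, the pancreatic-type ribonuclease, had 7.30, 6.53 and 7.46 in CSN8ΔIEC, against 8.35, 8.69 and 9.18 in CSN8fl/fl, and fell 3.13-fold (adjusted p = 0.0296). Tmed6, a cargo carrier of the early secretory pathway, had 5.52, 4.51 and 6.48 in CSN8ΔIEC, against 7.82, 7.66 and 7.69 in CSN8fl/fl, and fell 4.65-fold (adjusted p = 0.0401). In both the groups did not overlap. Rnase1 passed only without CSN8fl/fl replicate 1 when arrays were left out in turn, and Tmed6 only without CSN8ΔIEC replicate 2 or 3 (highest adjusted p 0.1 for Rnase1 and 0.146 for Tmed6). Spink1, a trypsin inhibitor, differed by −0.69 (adjusted p = 0.186) and Cela1, an elastase, by 0.62 (adjusted p = 0.0888).

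Acinar transcription factors were measured in all 6 cases. Bhlha15, also called Mist1, which sets up the secretory apparatus of acinar cells and other serous cells, had 6.47, 5.57 and 6.46 in CSN8ΔIEC, against 7.95, 7.63 and 7.61 in CSN8fl/fl. It fell 2.97-fold (log2 difference −1.57 ± 0.24, adjusted p = 0.0223), but passed only without CSN8ΔIEC replicate 2 or 3 of the 6 fits lacking 1 array (highest adjusted p 0.0654). Ptf1a, the defining factor of the acinar lineage, lay between 3.22 and 3.73 in all arrays, at the 5.57 percentile of gene means, and differed by −0.30 (adjusted p = 0.321). Its partner Rbpjl differed by −0.11 (adjusted p = 0.783). Gata4, Gata6 and Nr5a2, which gut epithelium also uses, differed by −0.092, −0.025 and 0.059 (adjusted p = 0.753, 0.949 and 0.903).

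Of the 13 pancreatic islet and duct genes measured, 0 passed the threshold (limma, 0 at an unadjusted p under 0.05), with a median difference of 0.04. The share that passed over all genes was 1.08%. Among genes of the proximal small intestine and its glands, which lie nearest the pancreas, 1 of 17 fell and 0 rose, with a median of 0.14. The one that fell was Cybrd1, the duodenal iron reductase (2.19-fold, adjusted p = 0.0194), whose call was lost if CSN8ΔIEC replicate 1 or 2 was dropped (highest adjusted p 0.1). None of 14 genes of the distal small intestine passed (limma, 4 at an unadjusted p under 0.05), with a median of −0.41.

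Of 29 measured Paneth cell genes beside the α-defensins and lipases, 8 fell, 0 rose and 21 did not pass, with a median of −0.34. Over all genes, 0.702% fell and 0.374% rose. In 14 of the 29 each CSN8ΔIEC array lay below each CSN8fl/fl array, beside 11.7% of all genes. The pentraxin Mptx1 had 8.79, 8.69 and 9.83 in CSN8ΔIEC, against 11.22, 11.98 and 12.11 in CSN8fl/fl. The other 5 with the smallest p were Ang4 and Ang5, angiogenin-family ribonucleases, Habp2, a plasma-type protease, Nupr1, a stress-induced nuclear protein, and Mptx2, with differences of −1.84, −2.06, −1.92, −2.22 and −1.96 (adjusted p up to 0.0258). Ang4 and Ang5 passed whichever array was dropped. Dropping CSN8ΔIEC replicate 1 ended the calls of Mptx1, Habp2 and Nupr1 (adjusted p = 0.0535 for each), and Mptx2 was lost with that array or CSN8fl/fl replicate 2 or 3 dropped (highest adjusted p 0.117). With CSN8ΔIEC replicate 1 dropped, the count of 8 became 2, with CSN8fl/fl replicate 3 dropped 5, and with each other array dropped 6 or 7.

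All 22 α-defensins had lower signals in each CSN8ΔIEC array than in each CSN8fl/fl array, beside 11.7% of all genes. Of the 22, 5 fell, beside 0.702% of all genes. Their median difference was −1.17, and the count of 5 was 0 without CSN8ΔIEC replicate 1 and 16 without CSN8ΔIEC replicate 3. The values of Defa3 and Defa17 were identical, as were those of Defa20 and Defa32 and of Defa2 and Defa33, so the 22 are not 22 separate measurements. The linear signals of the 29 Paneth cell genes summed to 62977 to 79672 in CSN8ΔIEC and to 99249 to 107922 in CSN8fl/fl. Their part in the lower lipase signals was not tested.

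For the cell types that follow, the shares over all genes were 0.702% that fell and 0.374% that rose. Of 13 measured genes of tuft cells, the chemosensory cells of the epithelium, 5 fell, 0 rose and 8 did not pass. Their median was −1.69, and −1.01 without CSN8fl/fl replicate 3. The count of 5, which includes Cd24a, also on the Paneth cell list, became 0, 1 and 2 with CSN8ΔIEC replicates 1, 2 and 3 dropped in turn, and 6, 2 and 6 with the CSN8fl/fl replicates dropped in the same order. Their linear signals summed to 2422 to 2887 in CSN8ΔIEC and to 4969 to 10343 in CSN8fl/fl. The high end was CSN8fl/fl replicate 3, whose median lay 1.69 above the mean over the 6 arrays, against 0.33 in each of the other CSN8fl/fl arrays. Clps, Pnliprp2, Pnliprp1 and Cel also had their highest signals in that array. Within CSN8ΔIEC the order differed. There the tuft cell median was −0.60, −0.82 and −0.83 in replicates 1 to 3. Clps, Pnliprp2 and Pnliprp1 were highest in CSN8ΔIEC replicate 3, and Cel was lowest in it. Of goblet cell genes 5 of 12 fell and 0 rose (median −0.52, 1 without CSN8fl/fl replicate 3), of enterocyte genes 0 of 16 passed (limma, 5 at an unadjusted p under 0.05, median −0.11) and of enteroendocrine genes 2 of 13 rose and 1 fell. Of 12 stem cell genes 0 passed (limma, 5 at an unadjusted p under 0.05), with a median of 0.39, and their median deviation from the mean over the 6 arrays was −0.48 in CSN8fl/fl replicate 3. Of 22 genes of other gut wall cells 1 rose, the smooth muscle actin Acta2 (1.58-fold, adjusted p = 0.0366, lost whichever array was dropped), and 0 fell; the leukocyte gene Ptprc differed by −1.05 (adjusted p = 0.106) and the plasma cell gene Jchain by 1.51 (adjusted p = 0.181). The part of these cell types in the lipase differences was not tested.

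**Figure D3:**
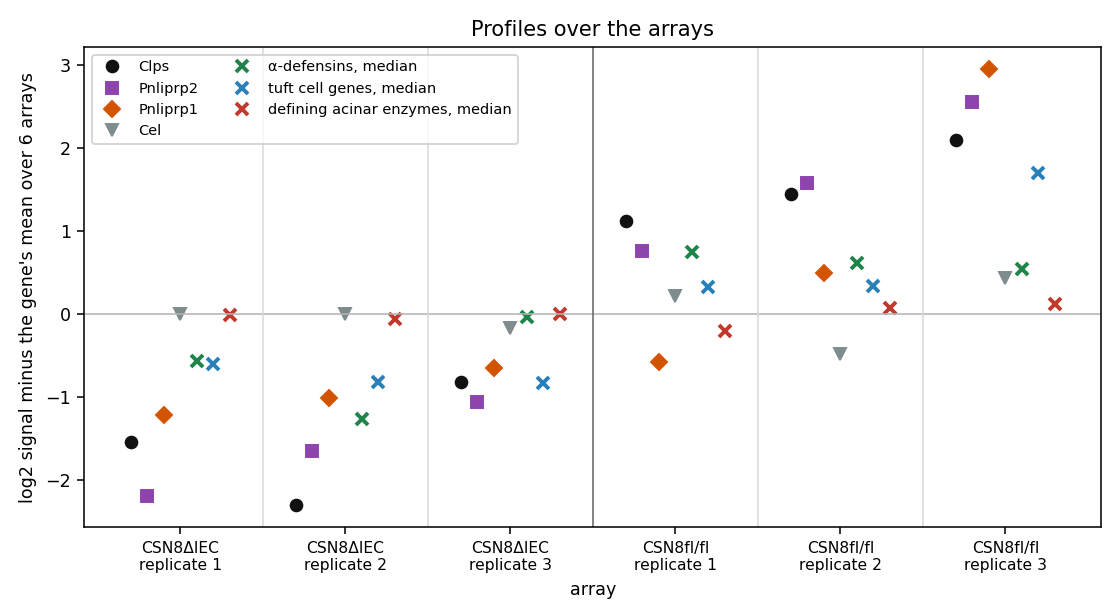
Log2 signal in each array minus the mean of the gene over the 6 arrays (vertical axis), for Clps, Pnliprp2, Pnliprp1 and Cel (filled symbols), and the median of that quantity over 22 α-defensins, 13 tuft cell genes and 18 defining acinar enzymes (crosses). CSN8ΔIEC arrays are on the left. The acinar median stays between −0.21 and 0.12, the α-defensin median lies between −1.26 and −0.031 in CSN8ΔIEC and between 0.55 and 0.75 in CSN8fl/fl, and the tuft cell median reaches 1.69 in CSN8fl/fl replicate 3.

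The patterns of the lipase genes over the 6 arrays were compared with each other and with other genes by Pearson's r, as a description, since 6 arrays of 2 genotypes mostly carry the genotype difference. Clps and Pnliprp2 had r = 0.965 with each other, and 0.687 when each value was taken as its deviation from the mean of its genotype. Pnliprp1 had r = 0.864 with Pnliprp2 and 0.783 with Clps, and 0.906 and 0.627 on the deviations. Cel had r between 0.204 and 0.409 with the other three.

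Among 654 genes with an SD of at least 0.5 over the arrays, 51 had r over 0.95 with Clps and 60 with Pnliprp2. The ranking left out the lipases, predicted genes, accession-like symbols, microRNAs and snoRNAs. In it, the 8 nearest to Clps were Galnt5 (r = 0.996), Myrip, Lbh, Cd24a, A4gnt, Rnase1, Colca2 and Nupr1 (r = 0.988). Galnt5 and A4gnt encode enzymes that build O-linked sugar chains, Myrip a linker of secretory granules to the cytoskeleton, and Cd24a a surface protein of Paneth and tuft cells. The 8 nearest to Pnliprp2 were Colca2 (r = 0.993), Slc1a1, Iyd, Ang2, Rgs13, Sval1, Reep5 and Fcgrt (r = 0.983). Slc1a1 is a glutamate transporter, Iyd an iodotyrosine deiodinase, Ang2 an angiogenin-family ribonuclease, Rgs13 a tuft cell regulator of G protein signalling and Fcgrt the neonatal Fc receptor. Colca2 was on both lists. On the deviations from the genotype means, 8 Paneth cell genes (Mptx1, Mptx2, Ang4, Lyz1, Mmp7, Defa26, Nupr1 and Kit) had r between 0.427 (Lyz1) and 0.986 (Kit) with Clps, between −0.324 (Lyz1) and 0.818 (Mptx1) with Pnliprp2, and between −0.417 (Lyz1) and 0.602 (Mptx1) with Pnliprp1. The tuft cell genes Dclk1 and Rgs13, of the 13 measured, had r = 0.658 and 0.705 with Clps, 0.756 and 0.916 with Pnliprp2, and 0.95 and 0.954 with Pnliprp1. CSN8fl/fl replicate 3 stood out in Pnliprp1 (9.99, against 6.47 and 7.53 in CSN8fl/fl replicates 1 and 2). The same held for Dclk1 (10.13, against 8.54 and 8.80). The r without that array was not computed. The Paneth and tuft cell genes compared here were picked with their values known.

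Other fat-splitting enzymes were counted beside the 1.08% of all genes that passed the threshold. Of 27 measured genes of the wider lipase families and their helpers, 1 fell and 0 rose, with a median of −0.036. Mgll, the lipase that frees the last fatty acid from monoacylglycerol, had 5.11, 5.03 and 4.86 in CSN8ΔIEC, against 5.87, 5.82 and 6.12 in CSN8fl/fl. It fell 1.91-fold (adjusted p = 0.0169) and lost its call if any 1 CSN8ΔIEC array was dropped (highest adjusted p 0.0673). Lipo3, of the acid lipase family, had 6.05, 7.88 and 6.83 in CSN8ΔIEC, against 8.37, 7.997 and 8.08 in CSN8fl/fl, a difference of −1.23 (adjusted p = 0.184) that passed without CSN8ΔIEC replicate 2 (adjusted p = 0.0281). Liph, which makes lysophosphatidic acid, differed by −0.50 (adjusted p = 0.197), and Lipk, an acid lipase relative, by 0.50 (adjusted p = 0.217).

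Of the 11 secreted phospholipases A2, which release fatty acids from phospholipids, 1 fell and 0 rose, with a median of −0.026. Over all genes, 1.08% passed. Pla2g2f had 6.80, 6.55 and 7.40 in CSN8ΔIEC, against 8.44, 8.14 and 8.42 in CSN8fl/fl, and fell 2.67-fold (adjusted p = 0.0194). The call was lost if CSN8ΔIEC replicate 1 or 2 or CSN8fl/fl replicate 3 was dropped (highest adjusted p 0.1). Pla2g5 differed by 0.81 in the other direction (adjusted p = 0.0663). Pla2g1b, the pancreatic phospholipase A2, lay between 4.85 and 5.00 in all arrays, with a difference of −0.054 (adjusted p = 0.847).

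**Figure D4:**
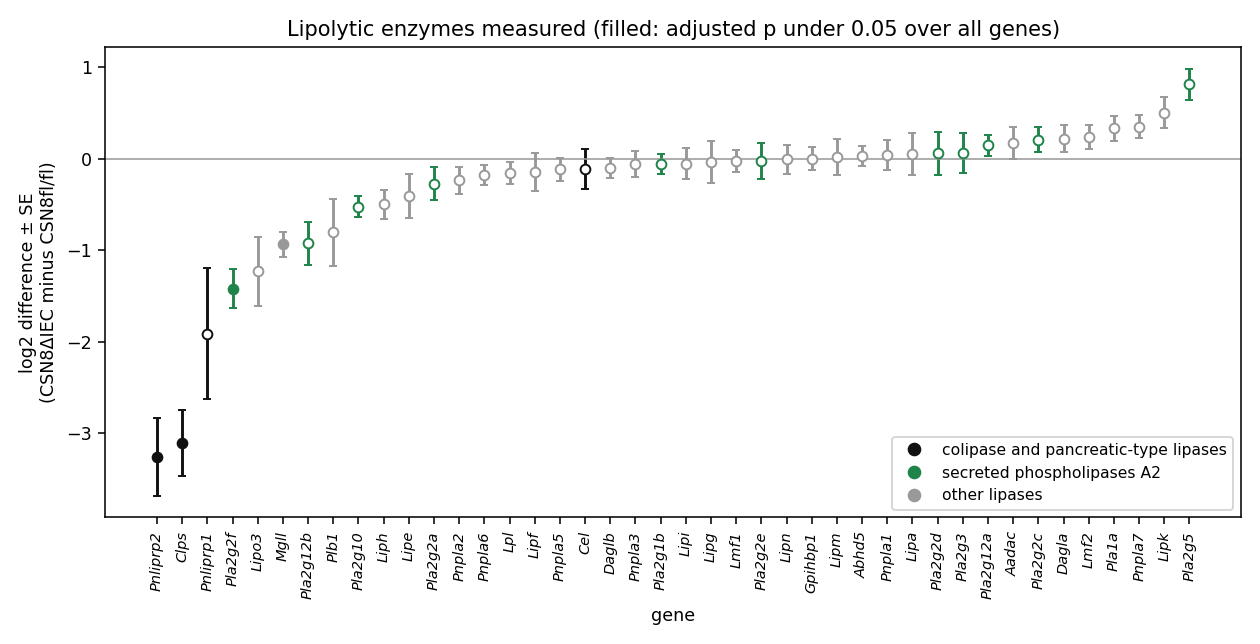
Log2 difference, CSN8ΔIEC minus CSN8fl/fl, with its SE (vertical axis) for each lipolytic enzyme and helper measured (horizontal axis), in order of size. Filled points passed an adjusted p of 0.05 over all genes. Pnliprp2, Clps and Pnliprp1 are at the low end (−3.26, −3.11 and −1.91), followed by Pla2g2f at −1.42, and Cel is near 0 at −0.11.

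Genes that take up the products of fat digestion were counted next. Over all 19505 genes, 1.08% passed and 2918 had an unadjusted p under 0.05. Of 30 measured genes of fatty acid uptake, triglyceride resynthesis and chylomicron assembly, 0 passed in either direction (limma, 6 at an unadjusted p under 0.05), with a median of −0.18, and −0.066 without CSN8fl/fl replicate 3. Among them, Naaa, an acid amidase, differed by −1.08 (adjusted p = 0.119), Pla2g12b, needed for loading lipoproteins with lipid, by −0.92 (adjusted p = 0.116) and the sterol exporters Abcg5 and Abcg8 by −0.54 and −0.47 (adjusted p = 0.163 and 0.17). Each CSN8ΔIEC array lay below each CSN8fl/fl array in 6 of the 30 uptake genes and above in 0. Over all genes, these shares were 11.7% and 10.7%. Of 9 hormones and receptors that govern pancreatic secretion, 1 rose and 0 fell, with a median of −0.10. Cck, the hormone that makes acinar cells release their enzymes, had 9.11, 8.80 and 9.29 in CSN8ΔIEC, against 8.15, 8.38 and 8.28 in CSN8fl/fl. It rose 1.73-fold (adjusted p = 0.0487) and passed only without CSN8ΔIEC replicate 2 of the 6 fits lacking 1 array (highest adjusted p 0.198). Gip and Sct, which encodes secretin, differed by −0.68 and −0.56 (adjusted p = 0.0515 and 0.0827).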

How the data were processed

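Log2 probe set signals from 6 arrays were analysed. The deposited log2 values were made by the authors with RMA and Partek 6.6, per the submitters' processing notes; its settings and the array's genome build are not stated in any source used here. RMA evens out the distributions between arrays and compresses changes near both ends of the range. Of 22206 probe sets, 19572 had 1 gene symbol in the platform annotation, 0 had several, and 2634 had none and are unnamed here. The gene ID of each of the 19572 probe sets was found in RefSeq. For 55 genes with several probe sets, the one with the highest mean was used, which left 19505 genes. Arrays have no read depth, and their number limits the precision. Array medians differed by 0.038 at most.

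CSN8ΔIEC minus CSN8fl/fl was tested with limma 3.58.1 in R 4.3.3 (lmFit, eBayes; 8.85 degrees of freedom after moderation), with Benjamini-Hochberg adjustment over all genes and a threshold of 0.05. Further models added replicate 3 against replicates 1 and 2 and its interaction with genotype. The script was tested on simulated data. Genes named are the lipases; the acinar enzymes and factors; up to 6 of each other list by smallest p; Cops8; Y-linked genes; and the 8 genes nearest to Clps and to Pnliprp2. The genes and lists were chosen with earlier results of these data known. Alternatives are given in the closing section. Promoters (4 of 5 genes matched, all but Clps) are RefSeq's.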

Additional observations from a re-analysis of the deposited data

How the results depend on the processing

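The differences of Clps (−3.48 to −2.73 when 1 array was left out in turn) and Pnliprp2 (−3.70 to −2.80) kept their direction under every alternative run, and those of Pnliprp1 (−2.67 to −0.91) did as well, while that of Cel ran from −0.38 to 0.076. In all but Cel, each CSN8ΔIEC array lay below each CSN8fl/fl array, so dropping 1 array could not change the direction. The genes were also chosen with this comparison known. Of Clps, Pnliprp2, Pnliprp1 and Cel, 2 passed in each setting except without CSN8ΔIEC replicate 1, where 1, Clps, did. The count thus ranged from 1 to 2. The count of all genes past the threshold, 210, was 324 with limma-trend and 41 to 228 when 1 array was left out in turn (lowest without CSN8ΔIEC replicate 1), which leaves fewer samples; elsewhere the cause was not tested. The replicate number as a block gave 202 genes, Clps and Pnliprp2 among them; same-numbered arrays deviated from their genotype means with correlations of 0.117, −0.024 and 0.038, so beyond the labelled sex and age that replicate 3 has in both genotypes, the numbers were not taken as pairs. The α-defensin count of 5 was 12 with limma-trend, 9 with labelled sex and age in the model, 8 with dim genes filtered out and 3 after repeated quantile normalisation. The count of defining acinar enzymes past the threshold was 0 in every setting run, where 1.08% of all genes passed in the main fit. Of the 18, 9 had a mean below the 25th percentile and were not tested with dim genes filtered out.

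For replicate 3 against replicates 1 and 2, adjusted p-values of the 4 genes ranged from 0.0884 to 0.997, and the Cel difference of 0.20 was 0.56 without CSN8ΔIEC replicate 3 and turned to −0.008 without CSN8fl/fl replicate 2 and to −0.17 without CSN8fl/fl replicate 3. For the interaction they ranged from 0.141 to 0.973, and the Clps value of 0.30 was 0.677 without CSN8ΔIEC replicate 1 and turned to −0.083 without CSN8ΔIEC replicate 2. Leaving out arrays in these 2 models was chosen after seeing the data. Signals near the bottom of the range, as for Cel, the acinar enzymes and Pnliprp1 in CSN8ΔIEC, respond less to a change in RNA.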
